A study of Mus musculus with 3 samples.

Results

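The genes described here encode proteins of the mitochondrial ribosome and of the machinery that imports proteins into mitochondria. They were taken from the array annotation as the probe sets with exactly 1 gene symbol that begins with Mrpl, Mrps, Timm or Tomm. This gave 77 genes of the 8220 named by such probe sets, read by 88 of 12588 probe sets. Of these, 68 probe sets read 60 ribosomal protein genes and 20 read 17 import genes. A further 7 probe sets list such a symbol together with another gene and were not members.

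RNA came from LNC cells, a malignant B-1 line grown from lymph node tissue of a New Zealand Black mouse, measured on an Affymetrix oligonucleotide array. The labels give 3 groups of 1 array each, all with RNA taken at 24 h: cells given an IL-10 antisense oligonucleotide at 20 µM, cells given a scrambled oligonucleotide at 20 µM and untreated cells. The line is a single tumour line, and no source used here says if cultures were pooled for an array. A group of 1 array has no replicate, so values are given without tests or p-values.

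Nearly all mitochondrial proteins are encoded in the nucleus, made in the cytosol and pulled into the organelle. Receptors of the TOM complex in the outer membrane bind the precursors. The TIM23 complex passes them to the matrix, and the TIM22 complex, fed by small TIM chaperones of the intermembrane space, inserts carrier proteins into the inner membrane. Mitochondrial ribosomal proteins are themselves imported in this way. In the matrix they join ribosomal RNA encoded by mitochondrial DNA, and the ribosome makes core subunits of the respiratory chain and the ATP synthase.

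Il10, the targeted gene, read 13946 on the antisense-labelled array, against 5616 on scrambled and 5164 on untreated. Its RNA was thus higher where it was the target, so the array is called by its label throughout and each direction drawn from it rests on that label. Of 6 B cell marker genes on the array, 4 were above the noise floor on the 3 arrays, namely Ms4a1, Cd79a, Cd79b and Pax5. Cd22, Cd5 and a further probe set of Pax5 were below it on each. With values below the floor set to it, B cell marker intensities summed to 63044 on the antisense-labelled array, 87171 on scrambled and 82983 on untreated. Of 4 T cell markers only Cd4 was above the floor on the 3 arrays, and of 5 macrophage markers only Cd14. T cell markers summed to 3054, 4127 and 3137 in the same order and macrophage markers to 3471, 3947 and 4798. The 3-prime over 5-prime signal of 18S ribosomal RNA was 8.13 on the antisense-labelled array, 4.48 on scrambled and 1.72 on untreated. The part of these differences in the results below was not tested.

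Intensities are on a linear scale, scaled to a common trimmed mean, and values below a noise floor of 595.9 were set to it. A probe set passed the filter when at least 1 array was above the floor. A difference is the log2 intensity of 1 array minus that of another, so that 1 is 2-fold. The spread of the control arrays served as a yardstick: among the 300 probe sets closest in level, 95% differ less than it between scrambled and untreated. It is 2.80-fold near 1000, 1.56-fold near 4000 and 1.27-fold near 16000. An effect of the scrambled oligonucleotide would enlarge it.

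Most of these genes were well detected. Of the 88 probe sets, 80 passed the filter, 78 of them through all 3 arrays. At gene level, 56 of 60 ribosomal protein genes and 16 of 17 import genes passed. Mrpl49, Mrps2, Mrps16, Mrps22 and Timm8a2 did not rise above the floor on any array, and Mrpl14 passed only through the scrambled array, at 654. A gene with several probe sets is represented by the one with the highest mean log2 intensity.

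The ribosomal protein genes stayed close to the controls and leaned slightly low on the antisense-labelled array. Their median log2 difference was -0.09 from untreated and -0.09 from scrambled, where all genes with 1 symbol had a median of 0.00 in both comparisons. With scaling to the bacterial spike-in controls these medians became 0.53 and 0.43, below the medians of all genes under that scaling, 0.59 and 0.48. That scaling adds 0.63 against untreated and 0.51 against scrambled to each difference above the floor, so the directions given for lists and genes here are relative to the trimmed mean. Of the 56 genes past the filter, 29 were lower on the antisense-labelled array than on both controls and 9 were higher. Among all 4643 genes past the filter 31.6% were lower than both and 37.4% higher. Of the 56 genes 55 were above the floor on the 3 arrays, and among all 3524 such genes 36.0% were lower than both and 37.9% higher. Both comparisons share the antisense-labelled array, so a low or high reading there counts in both. With spike-in scaling 2 ribosomal protein genes were lower than both and 50 higher, where 5.03% of all genes past the filter were lower and 82.3% higher, or 4.49% and 87.0% of those above the floor on the 3 arrays. These counts were near the shares of all genes. The common shift puts most genes above both controls, so such counts cannot show a lean as small as that of the medians. Over all 60 genes, with those at the floor included, the medians were -0.07 and -0.05. In bulk RNA, fewer cells with a transcript and less of it per cell cannot be told apart.

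The import genes leaned the other way. Their median difference was 0.26 from untreated and 0.15 from scrambled, and 0.89 and 0.66 with spike-in scaling, where all genes had 0.59 and 0.48. Of 16 genes past the filter, 10 were higher on the antisense-labelled array than on both controls and 3 were lower. Among all genes past the filter 37.4% were higher and 31.6% lower, or 37.9% and 36.0% of those above the floor on the 3 arrays. With spike-in scaling 14 import genes were higher and 0 lower. Under it 82.3% of all genes past the filter were higher and 5.03% lower, or 87.0% and 4.49% of those above the floor on the 3 arrays. The count of 14 is thus near the share of all genes. The difference of medians, ribosomal protein minus import genes, was -0.35 from untreated and -0.24 from scrambled. For the scrambled against the untreated array it was -0.05, with medians of -0.08 for ribosomal protein genes and -0.03 for import genes. Some probe sets carry a suffix in their identifier, in most cases here a mark of probes shared between transcripts. Without any suffixed probe sets the import median against untreated was 0.11 and the difference of medians -0.20. Each of these values rests on 1 array per group.

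**Figure D1:**
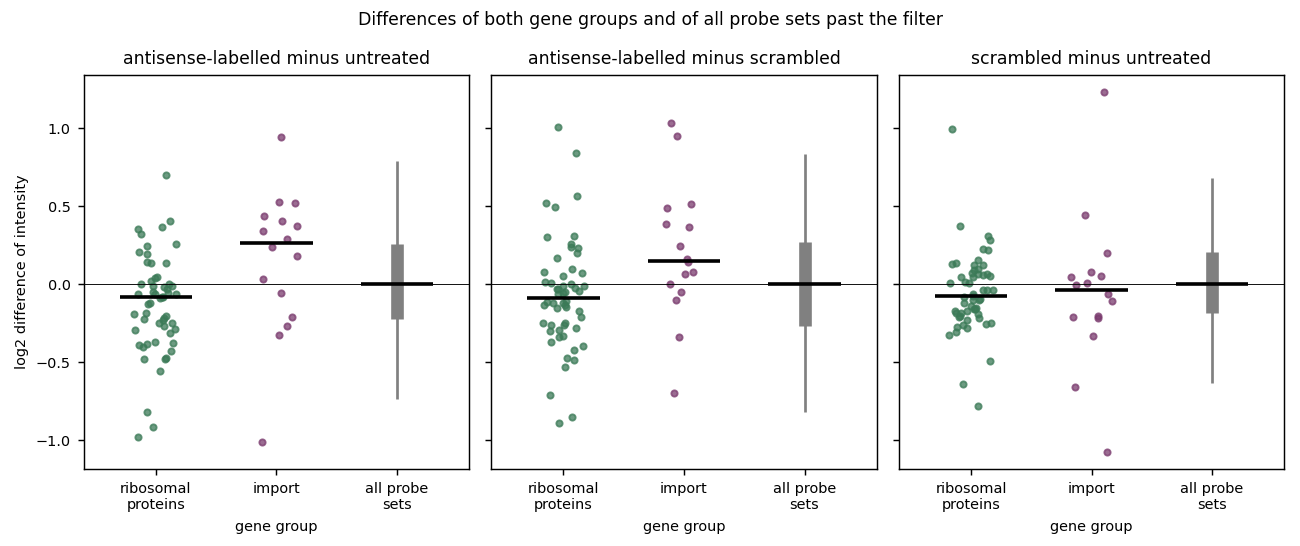
Log2 differences of intensity between arrays, in a panel per comparison, for the 56 ribosomal protein genes, the 16 import genes (points, 1 per gene) and all 6127 probe sets past the filter (thick bar, 25th to 75th percentile; thin line, 5th to 95th), with black lines at the medians. The medians of ribosomal protein and import genes were -0.09 and 0.26 for the antisense-labelled array against untreated, and -0.08 and -0.03 for scrambled against untreated; with spike-in scaling the ribosomal medians turn positive.

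Few of the members differed by more than the yardstick. Against untreated, 3 of 61 ribosomal probe sets were lower by more than the yardstick on the antisense-labelled array and 0 were higher, where 3.54% and 4.52% of all 6127 probe sets were. Against scrambled, 1 was lower and 5 were higher, where 5.04% and 5.27% of all were. Of the 19 import probe sets past the filter, 1 was lower and 1 higher against untreated, where 3.54% and 4.52% of all were. Against scrambled, 0 were lower and 3 higher, where 5.04% and 5.27% were. In both groups the share higher than scrambled was thus above that of all probe sets, on small counts and 1 array per group. Beyond the yardstick of both controls lay 1 member in each direction, Mrpl58 lower and Tomm7 higher, where 1.89% and 2.77% of all probe sets did.

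**Figure D2:**
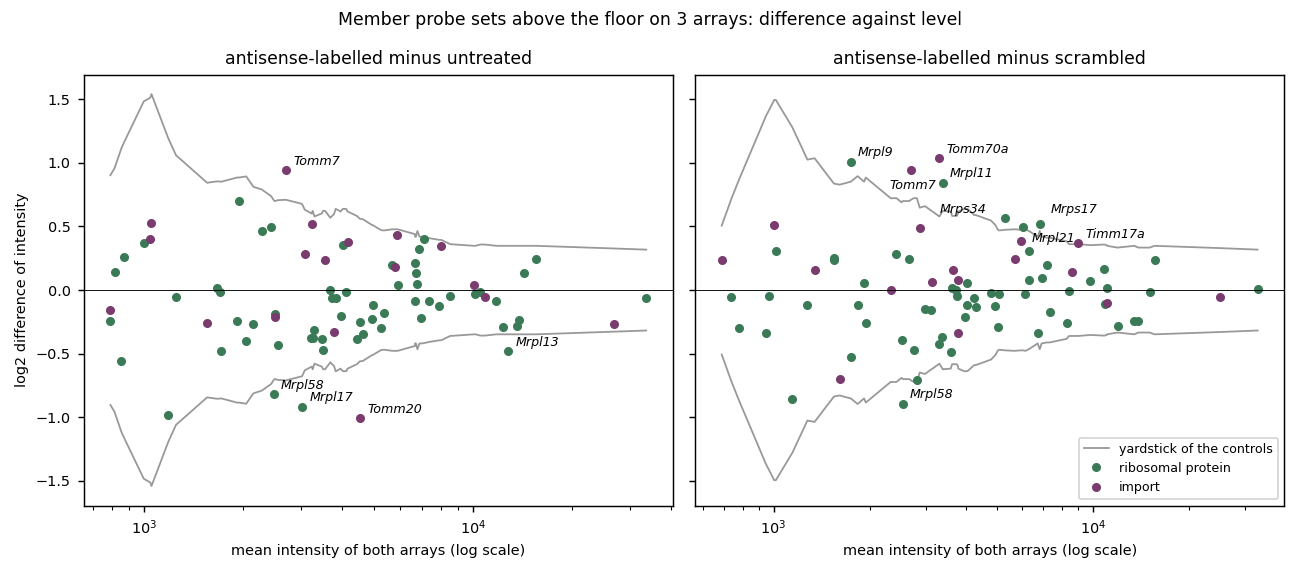
Log2 difference of the antisense-labelled array from each control (vertical) against the mean intensity of both arrays (horizontal, log scale) for the 78 member probe sets above the floor on the 3 arrays. Grey lines show the yardstick, and probe sets outside it are named. Tomm7 lies above it and Mrpl58 below it in both panels, and Tomm20 lies below it only against untreated.

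Past 2-fold the count was smaller still. Against untreated, 0 member probe sets were at least 2-fold higher and 1 was at least 2-fold lower on the antisense-labelled array, where 2.64% and 2.20% of all probe sets were. Against scrambled, 2 were higher and 0 lower, where 3.20% and 2.82% were. The scrambled array had 1 member at least 2-fold higher than untreated and 1 lower, where 1.70% and 1.40% were. These shares are near or below the background, so 2-fold differences were not more frequent among the members. With spike-in scaling 10 of 80 member probe sets were at least 2-fold higher than untreated on the antisense-labelled array and 0 lower, where 15.8% and 0.655% of all were. Against scrambled 9 were higher and 0 lower, where 12.3% and 1.12% were, and for scrambled against untreated 2 were higher and 0 lower, where 1.90% and 0.799% were.

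Among large subunit proteins, the gene farthest below both controls was Mrpl58. Its product is a peptidyl-tRNA hydrolase that sits in the ribosome and frees stalled chains. The probe set of Mrpl58 read 1863 on the antisense-labelled array, with 3461 on scrambled and 3292 on untreated. The log2 differences were -0.82 from untreated and -0.89 from scrambled, each beyond its yardstick of 0.71 and 0.70. Mrpl17 encodes a large subunit protein with a bacterial counterpart. On the antisense-labelled array Mrpl17 read 2197, where scrambled had 3595 and untreated 4151. It differed by -0.92 from untreated and -0.71 from scrambled, the second just within the yardstick of 0.72. Mrpl13 also encodes a core protein with a bacterial counterpart. Intensities of Mrpl13 were 10852 (antisense-labelled), 13167 (scrambled) and 15146 (untreated). It differed by -0.48 from untreated and -0.28 from scrambled, and against untreated this exceeded the yardstick of 0.35. The scrambled array lay between the other arrays for Mrpl13 and Mrpl17. For Mrpl58 the controls were close together and the antisense-labelled array stood below them.

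Mrpl9 was the large subunit gene farthest above both controls. For Mrpl9 the antisense-labelled array gave 2478, scrambled 1229.7 and untreated 1524. It differed by 0.70 from untreated and 1.01 from scrambled, beyond the yardstick of 0.85 against scrambled and within that of 0.89 against untreated. Mrpl11, whose product lies at the base of the stalk that recruits translation factors, was likewise above scrambled more than above untreated. Mrpl11 gave 4538 on the antisense-labelled array, then 2529.8 on scrambled and 3558 on untreated. Mrpl21 followed the same order. Mrpl21 read 7166 on the antisense-labelled array, against 5093 in the scrambled and 6198 in the untreated control. For these 3 genes the scrambled array was the lowest, by log2 differences from untreated of -0.31, -0.49 and -0.28. Mrpl4, which lines the exit tunnel, was above both controls by 0.25 and 0.24 and within the yardstick.

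Sequence upstream of 4 of the members described is shown as examples with an entry in the promoter table of RefSeq. They were chosen after their values were seen, among members with wide differences from a control, and not every such member is shown. They are Mrpl58 and Mrpl17 on the low side, Mrpl9 on the high side and Tomm20, described below. Each run holds the 250 bases before the annotated start, 5′ to 3′ on the strand of the gene, from build GRCm38.p6. Capitals mark matches on either strand to a core of the NRF1 motif (GCATGCGC), a core of the ETS motif (CCGGAAG) or an E-box (CACGTG). Only these exact letters were searched, so other forms of a motif are not marked, and lower case does not show their absence. NRF1 and the ETS factor GABP are known to bind promoters of nuclear genes for mitochondrial proteins, and Myc with Max binds E-boxes.
Mrpl58, chr11:115403502-115403751, plus strand: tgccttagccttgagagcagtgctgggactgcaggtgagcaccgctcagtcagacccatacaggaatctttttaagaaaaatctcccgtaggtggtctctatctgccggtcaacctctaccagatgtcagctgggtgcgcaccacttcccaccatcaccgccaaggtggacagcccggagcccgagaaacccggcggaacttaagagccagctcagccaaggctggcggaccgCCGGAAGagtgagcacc
Mrpl17, chr7:105811088-105811337, minus strand: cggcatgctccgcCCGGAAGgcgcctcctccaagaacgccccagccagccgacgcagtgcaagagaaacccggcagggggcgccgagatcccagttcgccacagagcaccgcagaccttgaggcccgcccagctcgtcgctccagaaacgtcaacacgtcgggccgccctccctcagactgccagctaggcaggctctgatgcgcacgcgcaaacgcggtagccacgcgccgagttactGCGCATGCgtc
Mrpl9, chr3:94443086-94443335, plus strand: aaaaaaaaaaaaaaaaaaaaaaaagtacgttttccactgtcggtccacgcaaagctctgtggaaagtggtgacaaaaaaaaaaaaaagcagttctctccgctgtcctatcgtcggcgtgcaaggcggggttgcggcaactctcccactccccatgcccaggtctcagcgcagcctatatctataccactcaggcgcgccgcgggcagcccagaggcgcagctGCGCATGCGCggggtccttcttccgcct
Tomm20, chr8:126945922-126946171, minus strand: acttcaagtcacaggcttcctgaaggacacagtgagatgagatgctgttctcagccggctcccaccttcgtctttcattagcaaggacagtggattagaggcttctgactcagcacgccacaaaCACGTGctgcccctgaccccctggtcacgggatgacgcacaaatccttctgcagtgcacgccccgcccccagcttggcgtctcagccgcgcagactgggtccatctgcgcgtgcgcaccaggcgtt

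The ETS core stands 17 bases before the start of Mrpl58 and 237 before that of Mrpl17, counted to the 5′ end of the match. The NRF1 core stands 11 bases before the start of Mrpl17, and at Mrpl9 matches on both strands overlap to form 1 longer match. Promoters of 53 ribosomal protein genes and 16 import genes were in the table, with 1 per gene used. The ETS core was found in 13 of the 53 and 6 of the 16, and in 7.1% of all 27025 promoters. The NRF1 core was found in 4 and 1 of them and in 2.3% of all, and the E-box in 4 and 3 and in 6.0% of all. These are matches to the exact letters given, with other forms of each motif not counted. They do not show that a factor binds.

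Genes for several proteins near the active parts of the large subunit stayed within the yardstick. Mrpl3 encodes a protein next to the peptidyl transferase centre. The probe set of Mrpl3 read 2972 on the antisense-labelled array, with 3845 on scrambled and 4131 on untreated. It differed by -0.47 from untreated and -0.37 from scrambled, within the yardstick. Mrpl23 and Mrpl24 encode proteins around the tunnel exit. On the antisense-labelled array Mrpl23 read 14993, where scrambled had 15144 and untreated 13625. Intensities of Mrpl24 were 6888 (antisense-labelled), 7777 (scrambled) and 6679 (untreated). Mrpl45 encodes a protein at the exit that tethers the ribosome to the inner membrane, and both of its probe sets were lower on the antisense-labelled array than on untreated, by -0.30 and -0.35. Against scrambled they differed by -0.12 and 0.05.

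Mrpl34 and Mrpl50 are large subunit genes of low intensity with wide differences. For Mrpl34 the antisense-labelled array gave 852, scrambled 1540.0 and untreated 773. Mrpl50 gave 841 on the antisense-labelled array, then 1066 on scrambled and 1660.2 on untreated. Mrpl34 stood high on the scrambled array, by 0.99 against untreated, and Mrpl50 stood high on untreated. At these levels the yardstick is 0.96 or more, and each difference lay within it for the antisense-labelled array. Mrpl18, a large subunit protein, was brightest in a family probe set. Mrpl18 read 32946 on the antisense-labelled array, against 32722 in the scrambled and 34486 in the untreated control. It differed by -0.07 from untreated and 0.01 from scrambled. Over the 39 large subunit genes past the filter, Mrps18a included, differences ran between -0.98 and 0.70 against untreated and between -0.89 and 1.01 against scrambled. Of them 19 were lower than both controls and 6 higher, where 31.6% and 37.4% of all genes were. Of all genes above the floor on the 3 arrays, 36.0% were lower and 37.9% higher. The medians of the large subunit genes were -0.07 and -0.12.

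**Figure D3:**
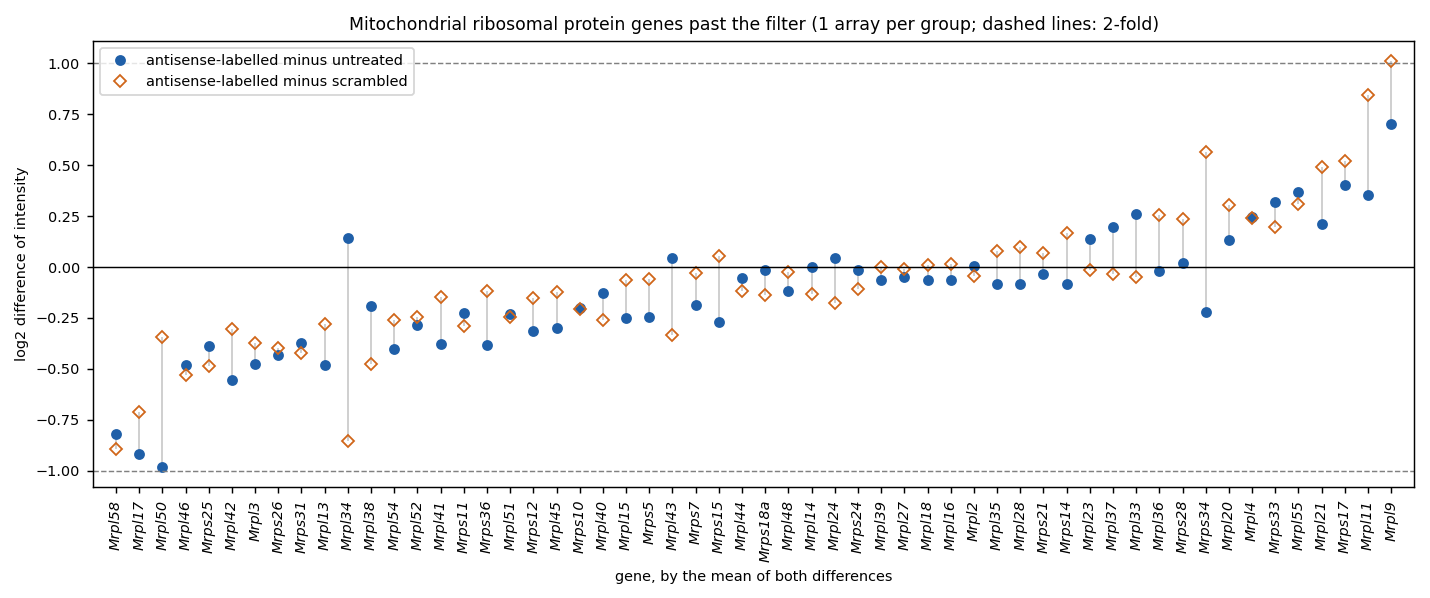
Log2 difference of the antisense-labelled array from untreated (filled circles) and from scrambled (open diamonds) for each of the 56 ribosomal protein genes past the filter, ordered by the mean of both, with dashed lines at 2-fold. Values run between -0.98 for Mrpl50 and 1.01 for Mrpl9. Of the genes, 29 have both values below 0 and 9 have both above, where 31.6% and 37.4% of all genes do; with spike-in scaling the counts were 2 and 50, near the 5.03% and 82.3% of all genes.

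Small subunit genes leaned lower against untreated. Of the 16 past the filter, 9 were lower than both controls and 3 higher, where 31.6% and 37.4% of all genes were. Of all genes above the floor on the 3 arrays, 36.0% were lower and 37.9% higher. The median difference of the small subunit genes was -0.21 from untreated and -0.04 from scrambled, relative to the trimmed mean. Spike-in scaling adds 0.63 and 0.51 to differences above the floor. The scrambled array was itself below untreated for 10 of these 16 genes, with a median of -0.11. Mrps12, at the decoding centre, was lower on both oligonucleotide arrays than on untreated. The probe set of Mrps12 read 2957 on the antisense-labelled array, with 3289.5 on scrambled and 3672 on untreated. Mrps26 and Mrps31 were lower on the antisense-labelled array than on both controls, which lay close together. On the antisense-labelled array Mrps26 read 2196, where scrambled had 2887 and untreated 2958. Intensities of Mrps31 were 2859 (antisense-labelled), 3831 (scrambled) and 3705 (untreated). Each difference of these 3 genes was within the yardstick. Mrps25 was lower than both in each of its probe sets, by -0.39 and -0.49 in the brighter and by -0.24 and -0.12 in the dimmer.

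Mrps17 and Mrps34 were the small subunit genes farthest above scrambled. For Mrps17 the antisense-labelled array gave 8169.9, scrambled 5694 and untreated 6179. It differed by 0.40 from untreated and 0.52 from scrambled, beyond the yardstick of 0.47 against scrambled and within that of 0.42 against untreated. Mrps34 gave 6449 on the antisense-labelled array, then 4362 on scrambled and 7507 on untreated. Its scrambled array was the low one, at -0.78 against untreated, and the antisense-labelled array lay between the controls. Mrps33 was higher than both, by 0.32 from untreated and 0.20 from scrambled, and Mrps28 by 0.02 and 0.23. Mrps14, Mrps21 and Mrps24, which were bright on every array, differed from either control by no more than 0.17 on the antisense-labelled array.

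Some members have a name that hides their place. Mrps18a carries a small subunit symbol, yet its product is known to sit in the large subunit. Its brightest probe set differed by -0.01 from untreated and -0.14 from scrambled, and its other probe sets, a reduced and a family one, were higher than untreated by 0.50 and 0.47. Mrps36 was later assigned to the 2-oxoglutarate dehydrogenase complex and not to the ribosome. Mrps36 read 3885 on the antisense-labelled array, against 4219 in the scrambled and 5065 in the untreated control. It was counted with the ribosomal protein genes, as its symbol has it, and with neither subunit.

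TOM complex genes held the widest differences of the antisense-labelled array from a control among import genes. Tomm20 encodes the receptor for precursors with a cleavable presequence. The probe set of Tomm20 read 3197 on the antisense-labelled array, with 3059 on scrambled and 6436 on untreated. Both oligonucleotide arrays were low and close together, by -1.01 for the antisense-labelled array and -1.07 for scrambled against untreated, while the antisense-labelled array differed from scrambled by 0.06. The yardstick at this level is 0.56 for the first. Tomm20 has 1 probe set here, so no second reading was at hand. With spike-in scaling the antisense-labelled array differed from untreated by -0.38 and the scrambled array by -0.96. The antisense-labelled array was then above scrambled by 0.58, so the closeness of both oligonucleotide arrays depends on the scaling.

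Tomm7, a small subunit of the complex that modulates its assembly, showed another pattern. On the antisense-labelled array Tomm7 read 3741, where scrambled had 1939.5 and untreated 1947. The controls were alike, at -0.01, and the antisense-labelled array was higher by 0.94 from untreated and 0.95 from scrambled, beyond the yardstick of 0.71 in each. Tomm40, the channel itself, was dim. Intensities of Tomm40 were 1199.7 (antisense-labelled), 841 (scrambled) and 906 (untreated). Its differences of 0.41 from untreated and 0.51 from scrambled lay within the yardstick of 1.51 and 1.49.

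Tomm70a encodes the receptor for carrier precursors, and its 3 probe sets disagreed. The brightest, a family probe set, read 4734 on the antisense-labelled array, 2309.6 on scrambled and 3647 on untreated. Its differences were 0.38 from untreated and 1.04 from scrambled, the second beyond the yardstick of 0.58. The next read 1418, 1274 and 1700.3 in the same order, and the dimmest read 746, 634 and 832. All 3 were highest or middle on the antisense-labelled array and lowest on scrambled, but only the family probe set was above untreated. Tomm34 is a cytosolic cochaperone that shares the name. It was counted with the import genes, as its symbol has it, and is among those higher than both controls. For Tomm34 the antisense-labelled array gave 6194, scrambled 5224 and untreated 5456. It differed by 0.18 from untreated and 0.25 from scrambled, within the yardstick.

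**Figure D4:**
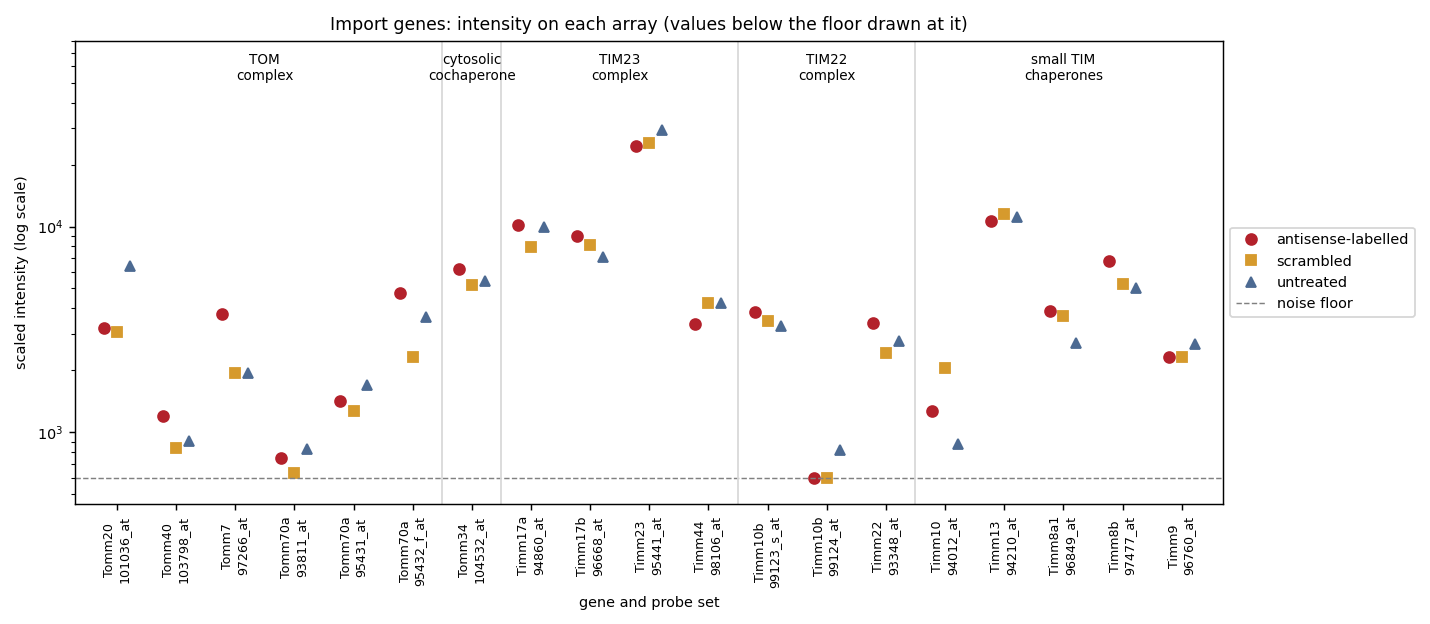
Scaled intensity (log scale) of the 19 import probe sets past the filter on the antisense-labelled array (circles), the scrambled (squares) and the untreated array (triangles), grouped by complex, with the noise floor of 595.9 dashed. Tomm20 is at 3197 and 3059 on the oligonucleotide arrays, against 6436 on untreated, and Tomm7 is at 3741 on the antisense-labelled array, against 1939.5 and 1947 on the controls.

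TIM23 complex genes split evenly. Timm17a and Timm17b encode alternative core subunits and were higher than both controls. Timm17a gave 10226 on the antisense-labelled array, then 7918 on scrambled and 9974 on untreated. Timm17b read 9019.5 on the antisense-labelled array, against 8163 in the scrambled and 7112 in the untreated control. Timm17a exceeded the yardstick of 0.36 against scrambled, by 0.37, and equalled untreated within 0.04. Timm23, the channel subunit, was lower than both. The probe set of Timm23 read 24608 on the antisense-labelled array, with 25489.5 on scrambled and 29574 on untreated. So was Timm44, which ties the matrix Hsp70 motor to the channel. On the antisense-labelled array Timm44 read 3373, where scrambled had 4264 and untreated 4234. It differed by -0.33 from untreated and -0.34 from scrambled. Apart from that of Timm17a against scrambled, these differences were within the yardstick.

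In the TIM22 complex, Timm22, the carrier translocase, was highest on the antisense-labelled array. Intensities of Timm22 were 3399.6 (antisense-labelled), 2423 (scrambled) and 2787 (untreated). Timm10b, a small TIM bound to that complex, was above both controls by 0.24 from untreated and 0.16 from scrambled in its brighter, shared probe set. Its other probe set was above the floor only on the untreated array, at 821. Both differences of Timm22, 0.29 from untreated and 0.49 from scrambled, lay within the yardstick.

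Small TIM chaperones carry hydrophobic precursors across the intermembrane space. Timm8a1 and Timm8b were higher than both controls. For Timm8a1 the antisense-labelled array gave 3884, scrambled 3675 and untreated 2702. Timm8b gave 6823 on the antisense-labelled array, then 5228 on scrambled and 5040.5 on untreated. Timm8a1 was also high on the scrambled array, by 0.44 against untreated. Timm13 encodes the partner of the Timm8 proteins. Timm13 read 10676 on the antisense-labelled array, against 11475 in the scrambled and 11097 in the untreated control. It differed by -0.06 from untreated and -0.10 from scrambled. Timm9 and Timm10 form a chaperone together and had unlike patterns. The probe set of Timm9 read 2332 on the antisense-labelled array, with 2326 on scrambled and 2694 on untreated. On the antisense-labelled array Timm10 read 1263, where scrambled had 2053 and untreated 876. For Timm10 the scrambled array was the highest, by 1.23 against untreated, and the antisense-labelled array lay between. Over the 5 genes past the filter the median difference was 0.44 from untreated and 0.00 from scrambled.

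Related mitochondrial genes outside these families are given as counts of those above the floor on the 3 arrays, a filter chosen after the data were seen, beside the 37.9% higher and 36.0% lower among all such genes. With spike-in scaling 87.0% of all such genes were higher. Among 11 further genes of import and precursor processing, 3 were higher than both controls and 2 lower, and the medians were 0.01 from untreated and 0.05 from scrambled. Romo1, a small inner membrane protein, read 19584 on the antisense-labelled array, 14703 on scrambled and 14148 on untreated. Its differences of 0.47 and 0.41 exceed the yardstick of 0.35. Pmpcb, a subunit of the peptidase that removes presequences, differed by 0.21 from untreated and 0.79 from scrambled. Grpel2, an exchange factor of the matrix Hsp70, differed by 0.64 and 0.42, and Dnajc15, a cochaperone of the motor, by -0.55 and -0.61. The last 3 lay within the yardstick.

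The 3 matrix chaperonin and protease genes were higher than both controls, with 37.9% higher among all genes, and their medians were 0.18 from untreated and 0.31 from scrambled. With a gene below the floor on some arrays included, the medians over 4 genes were 0.43 and 0.34. Hspe1, the cochaperonin that folds imported proteins with Hspd1, read 30581 on the antisense-labelled array, 24604 on scrambled and 18993 on untreated, with differences of 0.69 from untreated, beyond the yardstick of 0.33, and 0.31 from scrambled, within it. Hspd1 differed by 0.11 from untreated and 0.12 from scrambled. Clpp, a matrix protease subunit, differed by 0.18 and 0.37. Of 3 mitochondrial translation factors, 2 were higher than both and 0 lower. With a gene below the floor on some arrays included, 2 of 4 were higher and 1 lower, where 37.4% and 31.6% of all genes past the filter were. Tufm, the elongation factor that brings tRNA to the ribosome, read 7472 on the antisense-labelled array, 7069 on scrambled and 8619 on untreated. Tsfm, its exchange factor, differed by 0.03 and 0.35, and the initiation factor gene Mtif2 by 0.37 and 0.14.

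Genes of ribosome assembly and mitochondrial RNA were higher than both controls in 4 of 5 cases, where 37.9% of all genes above the floor on the 3 arrays were, or 87.0% with spike-in scaling. Lrpprc, which stabilises mitochondrial messenger RNA, differed by 0.37 from untreated and 0.34 from scrambled, and Eral1, which assembles the small subunit, by 0.74 and 0.08. Both were within the yardstick. Dap3, a small subunit protein with another name, differed by -0.02 and -0.06. Of 3 mitochondrial tRNA synthetases, 2 were higher than both and 0 lower, led by Sars2 at 0.96 and 0.35, within the yardstick. With those below the floor on some arrays included, 3 of 5 were higher and 1 lower, where 37.4% and 31.6% of all genes past the filter were. Of 5 genes of mitochondrial DNA and its transcription, 2 were higher than both and 0 lower. Tfb2m, a factor of mitochondrial transcription, differed by 0.38 and 0.68, and Gabpa, a subunit of GABP, by -0.08 and 0.38.

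Cytosolic ribosomal proteins and respiratory chain genes gave a frame for the size of these medians. For 24 cytosolic ribosomal protein genes the median was 0.02 from untreated and -0.20 from scrambled, and the scrambled array was above untreated by a median of 0.23. Mitochondrial ribosomal protein genes had a median of -0.08 in that last comparison. For 64 respiratory chain genes the medians of the antisense-labelled array were 0.03 and 0.10. No test separates these lists with 1 array per group.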

How the data were processed

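The deposited table holds linear intensity for 12654 probe sets, 66 of them controls. Its values show that the authors had brought the arrays to a trimmed mean of 1500.0, and between 24.8% and 27.9% of values are at or below 0. No source used here names their software. Arrays were rescaled to a shared mean over the 12588 other probe sets, with 2% trimmed at each end. The floor of 595.9 is 2 robust standard deviations of the values below 0, and log2 was taken after it was set. A probe set passed with any array above the floor, which left 6127. Symbols come from the platform annotation, with exactly 1 listed for 10276 probe sets, and gene identifiers of the 88 members matched RefSeq. Members, related lists and naming rule were chosen with earlier results of these data known, and the promoter motifs after the values were seen. Every member gene above the floor on the 3 arrays could be named, as could every probe set 2-fold apart, and at most 4 genes per related list, those farthest from the mean of the controls. With 1 array per group no test was possible, and precision is limited by the number of arrays. Counting was tested on simulated data. Python 3.11.15, numpy 2.4.6 and pandas 2.3.3 were used. Alternatives covered scaling, floor, filter and probe set choice.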

Additional observations from a re-analysis of the deposited data

How the results depend on the processing

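No paired analysis was possible because each group has 1 array, and leaving out a replicate was not possible for the same reason. Of 161 alternative values of the medians and counts, 131 stayed the same, meaning a move of under 0.1 (log2) for a median or within 1.5 times for a count. Scaling to the 6 dimmer bacterial spike-in controls shifts values above the floor by 0.63 against untreated, 0.51 against scrambled and 0.12 between the controls. It turned the ribosomal medians to 0.53, 0.43 and 0.03 in these comparisons and the import median of scrambled against untreated to 0.083, and moved the other import medians to 0.89 and 0.66. Under it 50 ribosomal protein and 14 import genes exceeded both controls and 2 and 0 lay below them, where 82.3% of all genes exceeded both and 5.03% lay below. Member probe sets 2-fold higher were then 10 against untreated, 9 against scrambled and 2 for scrambled against untreated, of 80 past the filter, where 15.8%, 12.3% and 1.90% of all probe sets were, so these counts are near the background. Then 0 were 2-fold lower than untreated on either oligonucleotide array, where 0.655% and 0.799% of all were. The import median against untreated was 0.13 with the floor doubled and 0.11 both without suffixed probe sets and with the mean over probe sets of a gene. The ribosomal minus import difference there was -0.22, -0.20 and -0.21. Counts of 2-fold probe sets moved by 1 or 2. Against scrambled, those higher on the antisense-labelled array were 1 with quantile normalization or without suffixed probe sets and 0 with scaling to the median, and those lower were 1 with the floor halved. Those lower than untreated were 2 with scaling to the median or the floor halved. For scrambled against untreated, those higher were 2 with scaling to the median or the floor halved and 0 with the floor doubled, and those lower were 2 with the floor halved. The spike-in values share the common shift, and the cause of the others was not tested. Intensities near the floor limit what can be read from dim members.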
